A study of Mus musculus with 16 samples.

Results

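Microglia near amyloid, dying neurons or damaged myelin are known to take on a state called disease-associated microglia, and 10 genes commonly used to mark that state are described here: Cst7, Itgax, Clec7a, Spp1, Gpnmb, Axl, Igf1, Lgals3, Csf1 and Ch25h. They were chosen by name, by matching Ensembl identifiers to symbols, and all 10 were found among the 21804 genes measured. The choice was made with values of the thalamus libraries known, so fold changes that involve the ret/ret thalamus are given as descriptions with no test. The set was labelled as genes near the floor, which the counts bear out for only part of it. In the 8 libraries of control animals Itgax had 0 to 3 counts in all 8, and Cst7 had 0 to 6 counts and was at or under 3 counts in 6 of 8. Clec7a had 1 to 17 counts, Lgals3 3 to 16 and Ch25h 0 to 36. The other 5 were well above the floor: Gpnmb had at least 14 counts in each control library, Igf1 53, Spp1 111, Csf1 243 and Axl 478.

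RNA was measured in brain tissue of C57BL/6 mice aged 4 months that carried the Pdgfb retention allele, in which PDGF-B lacks the sequence that retains it close to the vessel wall. Control animals carried 1 copy (Pdgfb ret/wt) and affected animals 2 copies (Pdgfb ret/ret), so every group carried the allele and no animal without it was measured. Each of 8 animals, 4 per genotype, gave a cortex and a thalamus library, making 4 groups of 4. Per the labels, ret/ret thalamus pieces were calcifications cut out under a fluorescence stereomicroscope, while the cortex and the control regions held none. In the thalamus, genotype and the selection of calcified tissue therefore cannot be told apart.

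Disease-associated microglia arise from homeostatic microglia in steps. The receptor Trem2 and its adaptor Tyrobp are needed for the later step, in which lysosomal, lipid-handling and phagocytic genes are raised while homeostatic genes such as P2ry12 usually fall. Several of the markers are also made by other brain cells: Spp1 by some neurons and by oligodendrocytes, Csf1 by astrocytes and neurons, Axl by vascular cells and astrocytes, and Igf1 by neurons. In whole tissue, more cells of a type and more RNA per cell cannot be told apart.

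The libraries held 13415391 to 29135064 counts. Levels are given in CPM, counts scaled to a common library size over all 16 libraries. Divided by the unscaled library totals, the floor of 3 counts lay between 0.103 and 0.224 CPM, a limit that covers counting error only. On the scaled levels, 3 counts came to 0.235 CPM in ret/wt cortex replicate 1 and to 0.109 CPM in ret/ret cortex replicate 3. Some libraries stood apart. The library labelled ret/ret thalamus replicate 4 held 15 Hox genes of the hindbrain, a list added after the data were seen, at a summed 35.9 CPM against 0.145 to 1.74 CPM in the other 15 libraries, with Hoxb3 at 7.49 CPM, Hoxa4 at 6.08 and Hoxb5 at 4.48. Its thalamus neuron genes summed to 226 CPM, against 391 CPM or more in the other 7 thalamus libraries, and its mitochondrial share was 12.1%, the highest of the 16, where the lowest was 3.22%. The animals ret/wt replicate 3 and ret/ret replicate 2 had the Y-linked gene Ddx3y at 55.2 to 68.6 CPM, against at most 0.219 CPM in the other 12 libraries, and their cortex libraries held cerebellum markers at 1005 and 2640 CPM, against at most 27.9 CPM in the other cortex libraries. Choroid plexus markers summed to 1149 CPM in ret/wt cortex replicate 4 and to at most 68.1 CPM in the other 3 of its group.

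Calcified thalamus was compared with control thalamus to ask which of the markers are higher where vessels calcify. Cst7, Itgax, Clec7a and Lgals3 were the members whose 4 ret/ret libraries all lay above all 4 ret/wt libraries. The pooled levels were 207 times as high for Cst7, 37.5 for Itgax, 7.18 for Clec7a and 4.10 for Lgals3. Axl, Csf1 and Gpnmb were higher by less and with overlap, Spp1 was higher in the mean through 1 library, and the levels of Igf1 and Ch25h overlapped widely. Of 14767 genes tested, 251 (1.7%) had all ret/ret libraries on top, and 0 (0%) passed a Benjamini-Hochberg threshold of 0.05 in edgeR's quasi-likelihood test, against 581 (3.93%) at an unadjusted p under 0.05 and 38 (0.257%) by DESeq2. Since the thalamus values chose the members, nothing is read from their count of 4 against that background. The count was 4 as well without ret/ret replicate 4, and 6 without ret/wt replicate 1.

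**Figure D1:**
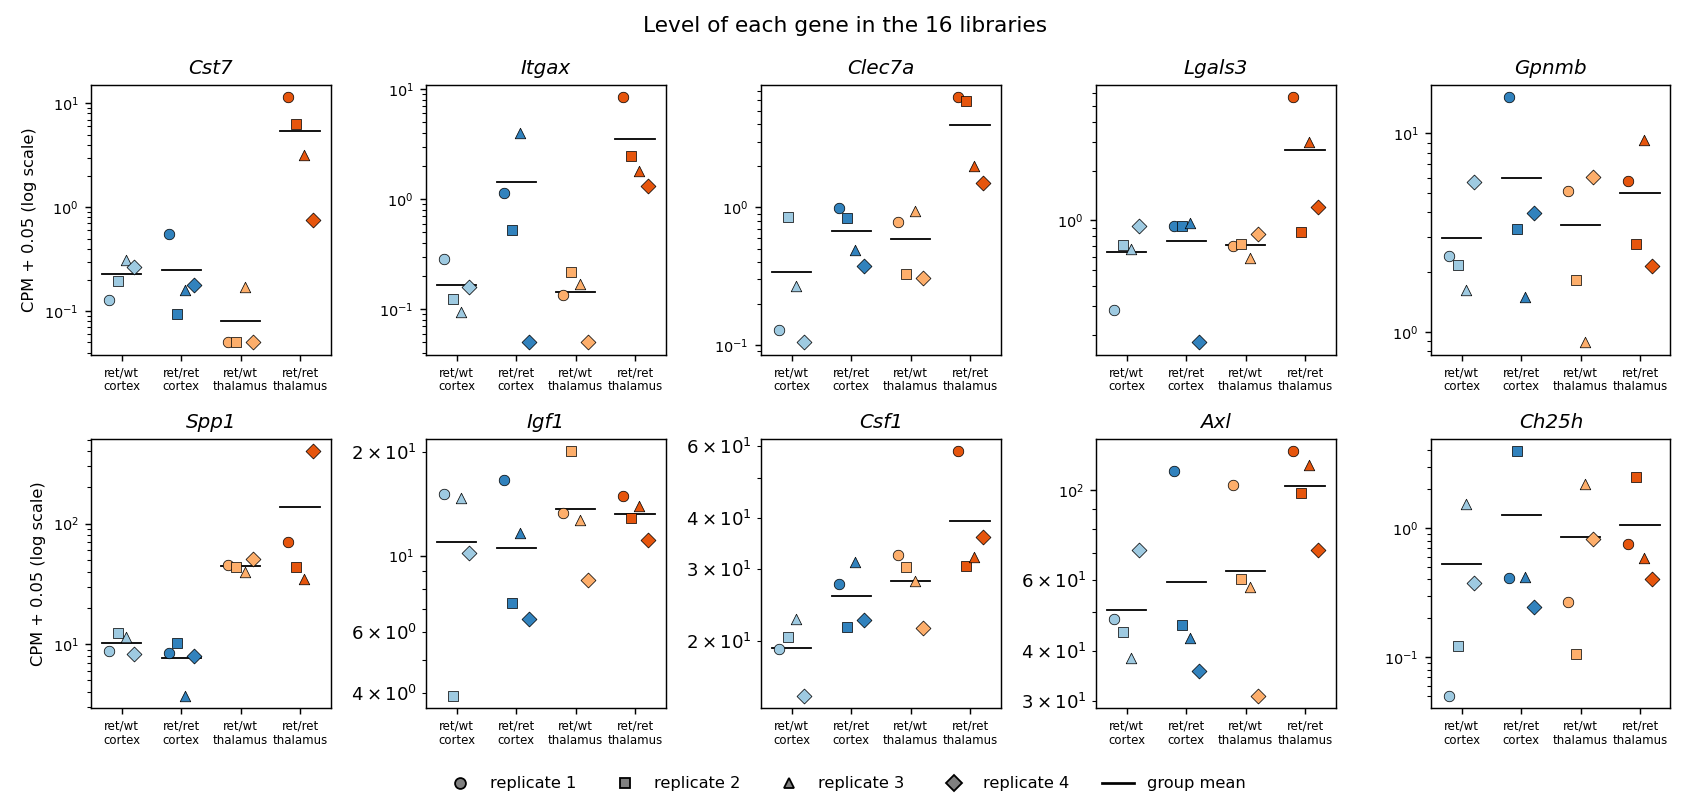
CPM + 0.05 on a log axis of the 10 genes in ret/wt cortex, ret/ret cortex, ret/wt thalamus and ret/ret thalamus (4 libraries each, symbol by replicate, line at the group mean). Cst7, Itgax, Clec7a and Lgals3 have all 4 ret/ret thalamus points above the ret/wt thalamus points, whereas the Spp1 mean of ret/ret thalamus is carried by replicate 4 at 403 CPM.

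Cst7 (ENSMUSG00000068129, chr2:150570415-150578944, + strand, GRCm38) encodes cystatin F, an inhibitor of cysteine cathepsins in the lysosome. Its counts in ret/wt thalamus were 0, 0, 2 and 0 in replicates 1 to 4, and its counts in ret/ret thalamus were 258, 142, 65 and 14. In CPM the ret/ret values were 11.4, 6.34, 3.15 and 0.704, with replicate 1 highest and replicate 4 lowest, a mean of 5.41 ± 4.63 CPM (SD, n = 4). The lowest ret/ret library was still above the highest ret/wt library, at 0.120 CPM. Pooled over libraries, 479 counts stood against 2, a ratio of 207 with a 95% exact interval of 56.9 to 1712 for counting error alone. The fitted log2 fold change was 7.36 ± 1.18 (SE), a value that depends on the prior count the fit adds where a group is close to 0. It was 6.66 without ret/ret replicate 1 and 9.81 without ret/wt replicate 3, the control library with the 2 counts.

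Itgax (ENSMUSG00000030789, chr7:128129547-128150657, + strand) encodes the integrin alpha chain CD11c, which pairs with the beta chain of Itgb2 and is also a marker of dendritic cells. In ret/wt thalamus it was at 0.0863, 0.166, 0.120 and 0 CPM, 7 counts in all. In ret/ret thalamus it was at 8.37, 2.41, 1.74 and 1.26 CPM, 304 counts in all. Replicate 1 was far above the other 3, yet each of those was also above every control. The pooled ratio was 37.5 (95% exact interval 17.97 to 94.0, counting error alone) and the log2 fold change 5.15 ± 0.87 (SE), or 4.20 without ret/ret replicate 1. Summed markers of dendritic cells were no higher in the ret/ret libraries, at 24.3 to 26.4 CPM over 7 genes against 26.7 to 37.9 CPM in ret/wt thalamus. Most of this sum was Flt3 (means of 16.1 CPM in ret/ret and 21.2 CPM in ret/wt) and Zbtb46 (7.77 and 8.22 CPM). The other genes were low, at 0.0665 (Ccr7) to 0.699 CPM (Clec10a) in ret/ret and 0.0439 (Clec9a) to 1.83 CPM (Clec10a) in ret/wt. The sum is thus a poor measure of dendritic cells, and their part in the Itgax level was not tested.

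Clec7a (ENSMUSG00000079293, chr6:129461591-129472779, - strand) encodes Dectin-1, a receptor for beta-glucans that signals through Syk, and carries the type polymorphic pseudogene in GENCODE M21. Its ret/wt thalamus values were 0.733, 0.277, 0.896 and 0.258 CPM. Its ret/ret thalamus values were 6.25, 5.85, 1.94 and 1.46 CPM. Replicates 1 and 2 were close to each other, and replicates 3 and 4 lower but above the controls. The log2 fold change was 2.86 ± 0.64 (SE), with a range of 2.52 to 3.19 over leaving out each library.

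The 250 bases before the annotated starts of these 3 genes, the members with the largest fold changes, are shown because the 3 were high in the same libraries. They are RefSeq sequences on GRCm38.p6, read 5′ to 3′ on the strand of the gene, at chr2:150570165-150570414 (+) for Cst7, chr7:128129300-128129549 (+) for Itgax and chr6:129472780-129473029 (-) for Clec7a. Capitals mark matches on either strand to GGAAGT, the core bound by ETS factors such as PU.1 of myeloid cells, and to TGANTCA, the core of AP-1 sites, which do not overlap in these windows.
Cst7: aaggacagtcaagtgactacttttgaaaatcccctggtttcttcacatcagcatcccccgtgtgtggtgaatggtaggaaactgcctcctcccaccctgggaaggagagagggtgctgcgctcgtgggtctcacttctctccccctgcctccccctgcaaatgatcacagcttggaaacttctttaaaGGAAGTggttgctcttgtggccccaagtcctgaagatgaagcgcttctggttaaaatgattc
Itgax: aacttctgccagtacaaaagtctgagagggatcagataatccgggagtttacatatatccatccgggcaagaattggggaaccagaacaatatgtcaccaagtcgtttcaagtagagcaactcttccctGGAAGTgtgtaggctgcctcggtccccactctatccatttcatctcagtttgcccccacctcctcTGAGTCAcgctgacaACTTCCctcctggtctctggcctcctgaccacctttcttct
Clec7a: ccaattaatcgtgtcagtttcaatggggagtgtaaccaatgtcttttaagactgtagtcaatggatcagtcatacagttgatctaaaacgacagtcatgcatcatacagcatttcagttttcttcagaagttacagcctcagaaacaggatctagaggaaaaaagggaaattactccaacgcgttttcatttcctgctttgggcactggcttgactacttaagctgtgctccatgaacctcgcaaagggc
All 10 members had an entry, with 12 windows in all because Spp1 and Clec7a have more than 1 start. GGAAGT was in 3 of the 12 windows (Cst7, Itgax and Spp1), against 19.7% of the 32851 windows of all genes. TGANTCA was in 2 of 12 (Itgax and Igf1), against 6.75%. CACGTG, an E-box core bound by TFEB-family factors of lysosomal genes, was in 0 of 12, against 6.02%. The Clec7a windows held none of the 3 motifs. These are letter matches, not measured binding sites.

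Lgals3 (ENSMUSG00000050335, chr14:47367751-47386160, + strand) encodes galectin-3, a secreted lectin that binds beta-galactosides and damaged lysosomes. It was at 0.647, 0.665, 0.538 and 0.775 CPM in ret/wt thalamus and at 5.58, 0.804, 2.96 and 1.16 CPM in ret/ret thalamus. The groups did not overlap, but ret/ret replicate 2 was just above the highest control. The log2 fold change was 2.03 ± 0.63 (SE), and 1.33 without ret/ret replicate 1.

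Gpnmb (ENSMUSG00000029816, chr6:49036546-49070929, + strand), a transmembrane glycoprotein of lysosomes and phagosomes, was at 5.09, 1.77, 0.837 and 6.00 CPM in ret/wt thalamus and at 5.72, 2.73, 9.21 and 2.11 CPM in ret/ret thalamus. The groups overlapped, and replicate 3 was the highest ret/ret library. The log2 fold change was 0.55 ± 0.65 (SE), and 0.08 without that replicate.

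Spp1 (ENSMUSG00000029304, chr5:104435118-104441050, + strand) encodes osteopontin, a secreted phosphoprotein of bone matrix and of activated macrophages. Its ret/wt thalamus values lay close together, at 45.7, 43.4, 39.3 and 50.6 CPM. Its ret/ret thalamus values were 70.7, 43.5, 34.6 and 403 CPM. Replicate 4, with 8011 counts, was far above the others, replicate 1 was moderately above the controls, and replicates 2 and 3 were within or below the control range. Replicate 4 is also the library that carried the hindbrain Hox genes, and the part of that tissue in its Spp1 level was not tested. The mean was 138 ± 177 CPM with it (SD, n = 4) and 49.6 ± 18.8 CPM without it (SD, n = 3), and the log2 fold change 1.65 ± 0.70 (SE) and 0.18.

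**Figure D2:**
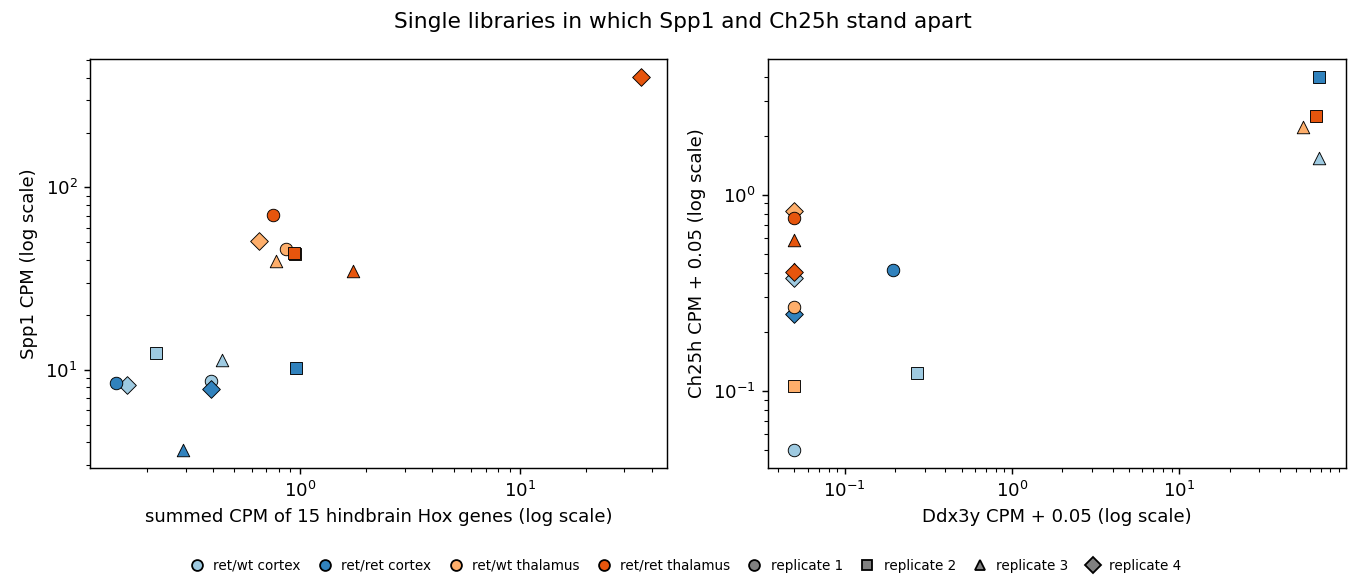
Left, Spp1 CPM against the summed CPM of 15 hindbrain Hox genes, both on log axes, for the 16 libraries; right, Ch25h CPM + 0.05 against Ddx3y CPM + 0.05 (colour by group, symbol by replicate). Ret/ret thalamus replicate 4 stands alone at 403 CPM of Spp1 and 35.9 CPM of Hox genes, and the 4 libraries with Ddx3y at 55.2 CPM or more are those with Ch25h at 1.49 CPM or more.

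Axl (ENSMUSG00000002602, chr7:25757273-25788705, - strand), a receptor tyrosine kinase for phosphatidylserine bridged by Gas6, was at 103, 60.4, 57.5 and 30.9 CPM in ret/wt thalamus and at 125, 98.3, 116 and 71.1 CPM in ret/ret thalamus. The groups overlapped because of ret/wt replicate 1 alone. The log2 fold change was 0.75 ± 0.32 (SE). Csf1 (ENSMUSG00000014599, chr3:107741048-107760469, - strand), the growth factor that acts on microglia through Csf1r, was at 32.4, 30.2, 27.9 and 21.5 CPM in ret/wt thalamus and at 58.3, 30.4, 32.0 and 35.9 CPM in ret/ret thalamus. Replicate 1 was the high ret/ret library, and the log2 fold change was 0.52 ± 0.25 (SE) with it and 0.25 without it.

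Igf1 (ENSMUSG00000020053, chr10:87858265-87937042, + strand), an insulin-like growth factor, was at 13.2, 20.1, 12.7 and 8.46 CPM in ret/wt thalamus and at 14.8, 12.8, 13.9 and 11.1 CPM in ret/ret thalamus. The ret/ret libraries lay inside the control range, with a log2 fold change of -0.01 ± 0.26 (SE) that changed sign when single libraries were left out, from -0.17 to 0.23. Ch25h (ENSMUSG00000050370, chr19:34473778-34475164, - strand), the enzyme that makes 25-hydroxycholesterol, was at 0.216, 0.0554, 2.15 and 0.775 CPM in ret/wt thalamus and at 0.709, 2.46, 0.533 and 0.352 CPM in ret/ret thalamus. The highest library of each genotype came from the animal with Y-linked reads. The log2 fold change was 0.38 ± 0.95 (SE), and it ran from -0.54 without ret/ret replicate 2 to 1.57 without ret/wt replicate 3.

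Over the 10 members, 9 of the log2 fold changes in thalamus were above 0, with a median of 1.20. The median of all 14767 genes was -0.02, and 47.1% were above 0. Since the thalamus values chose the members, nothing is read from this contrast. All 10 members passed the filter on low counts in this comparison. Cst7, Itgax and Clec7a did so through the ret/ret libraries, where Clec7a had 29 to 141 counts against 4 to 17 in ret/wt. Replicate 1 was the highest ret/ret thalamus library for 7 members (Cst7, Itgax, Clec7a, Axl, Igf1, Lgals3 and Csf1). Replicate 4 was the lowest for 7 (Cst7, Itgax, Clec7a, Gpnmb, Axl, Igf1 and Ch25h) while being the highest for Spp1. Replicate 1 also had the highest summed level in its group of homeostatic microglia genes (643 CPM), pan-microglia genes (566 CPM), meningeal fibroblast genes (566 CPM) and endothelial genes (387 CPM), and the lowest of neuron genes (3993 CPM). The part of this makeup in its marker levels was not tested.

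**Figure D3:**
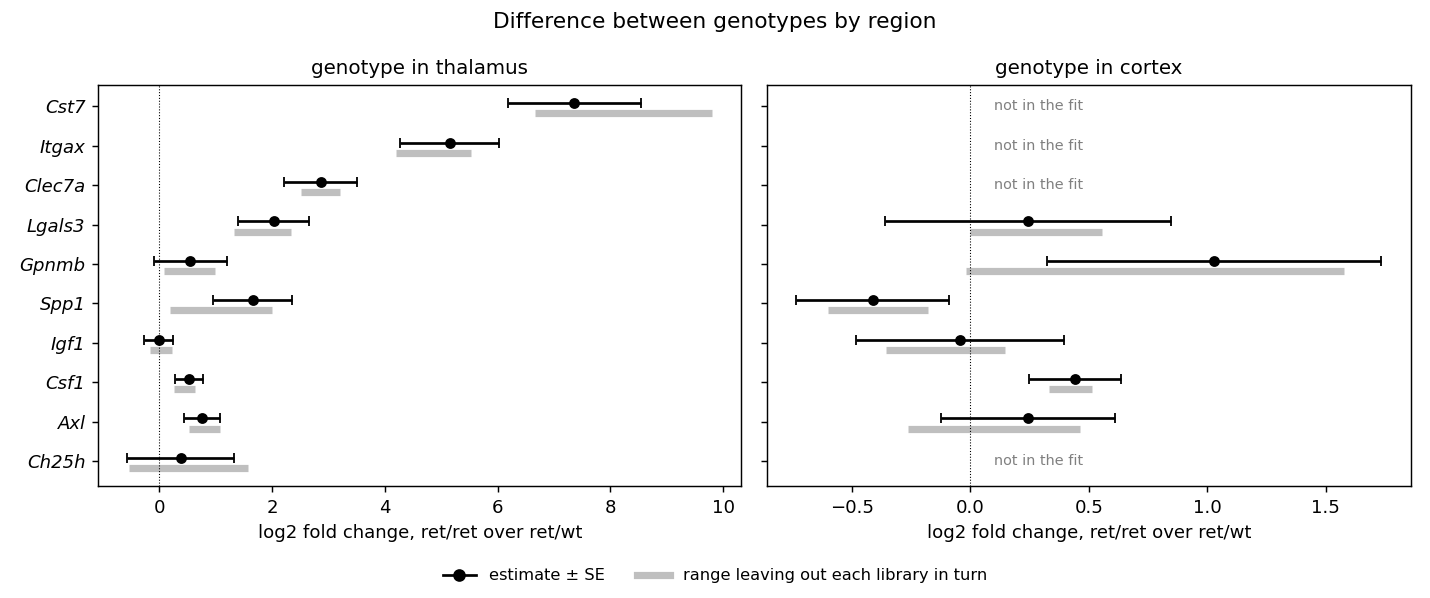
Log2 fold change of ret/ret over ret/wt with its SE (points and bars) and the range over leaving out each library in turn (grey), in thalamus and in cortex. In thalamus Cst7 is at 7.36 and Itgax at 5.15, and the grey bar of Spp1 reaches down to 0.18; in cortex the values of the 6 genes in the fit lie between -0.41 and 1.03.

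Homeostatic microglia genes stood higher in the same tissue, so the members were also expressed as a share of their sum, as a description. The list of these genes was chosen with earlier results of these data known, so nothing is read from its counts. Of 13 such genes, all 13 had a log2 fold change above 0, where 47.1% of all genes did. In edgeR 10 had an unadjusted p under 0.05, against 3.93% of all genes, and 0 passed Benjamini-Hochberg adjustment. In DESeq2 2 passed, against 0.257% of all genes. The sum of the 13 genes was 342 to 392 CPM in ret/wt thalamus and 503 to 643 CPM in ret/ret thalamus, 1.49 times as high in the mean. Cst7 came to 0.139% to 1.78% of this sum in the ret/ret libraries and to 0% to 0.031% in the controls, where 2 counts in 1 library make up its whole level, so no ratio is given. Itgax came to 0.249% to 1.30% against 0% to 0.0481%, and Clec7a to 0.289% to 1.10% against 0.0659% to 0.232%. Relative to this sum the libraries of both genotypes overlapped for the other 7 members. The mean share of Lgals3 was 2.56 times as high in ret/ret thalamus. That of Spp1 was 2.16 times as high with replicate 4, the library with hindbrain Hox genes, and 0.709 times without it, so its direction rested on that library. The ratio of mean shares was 1.07 for Axl, 0.974 for Gpnmb, 0.914 for Csf1, 0.897 for Ch25h and 0.639 for Igf1, and without replicate 4 those of Gpnmb and Ch25h were 1.15 and 1.08.

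Summed markers of other cells that can carry these genes overlapped between the genotypes of the thalamus, apart from the dendritic cell genes given above. The 9 monocyte and neutrophil genes measured summed to 1.21 to 5.98 CPM in ret/ret and 1.497 to 4.66 CPM in ret/wt, the 8 lymphocyte genes to 0.447 to 3.92 CPM and 0.998 to 2.84 CPM, and the 9 border-associated macrophage genes to 17.6 to 55.7 CPM and 13.4 to 68.5 CPM. The 10 osteoclast genes summed to 19.8 to 28.5 CPM in ret/ret and 19.8 to 26.1 CPM in ret/wt. Of the 8 osteoclast genes tested in thalamus, 5 had a log2 fold change above 0, where 47.1% of all genes did. Atp6v0d2, a subunit of the osteoclast proton pump, had 0 counts in all ret/wt libraries. It had at most 8 counts in any ret/ret thalamus library and 5 in any ret/ret cortex library. Ocstamp went the other way, with every ret/ret thalamus library below every ret/wt one. Its means were 0.648 and 1.76 CPM, a log2 fold change of -1.40 ± 0.44 (SE). The monocyte and neutrophil sum was highest in ret/ret replicate 1, which was also the highest for Cst7, Itgax and Clec7a, and its part in their levels was not tested.

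The cortex of the same animals asks whether the genotype alone goes with the markers. Its ret/ret libraries did not choose the members, but the set was labelled by low counts in controls, which include the control cortex. No member passed a test. Of the 6 that passed the filter on low counts, 0 passed a Benjamini-Hochberg threshold of 0.05 in edgeR's quasi-likelihood test, where 3 of 14288 genes (0.021%) did. DESeq2 gave 0 members too, where 39 genes (0.273%) passed. Csf1 alone had an unadjusted p under 0.05, as 538 genes (3.77%) did. No member had all ret/ret libraries above all ret/wt libraries, against 1.58% of all genes.

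Csf1 in cortex was at 19.1, 20.4, 22.5 and 14.6 CPM in ret/wt and at 27.4, 21.5, 31.2 and 22.4 CPM in ret/ret. Only ret/ret replicates 2 and 4 lay below the highest control. The log2 fold change was 0.44 ± 0.19 (SE), with an unadjusted p of 0.0477 in edgeR and 0.999 after Benjamini-Hochberg adjustment, and it ran from 0.33 to 0.51 over leaving out each library. The thalamus value of Csf1 was 0.52, and its interaction of genotype and region 0.06 ± 0.32 (SE).

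Gpnmb in cortex was at 2.35, 2.12, 1.58 and 5.64 CPM in ret/wt and at 15.2, 3.27, 1.46 and 3.91 CPM in ret/ret. Ret/ret replicate 1 was the highest of all 16 libraries, and without it the log2 fold change of 1.03 ± 0.71 (SE) became -0.02. Axl was also high in that library, at 111 CPM against 46.4, 43.1 and 35.6 CPM in the other ret/ret cortex libraries. Its controls were at 47.9, 44.4, 38.3 and 71.2 CPM, and its log2 fold change of 0.25 ± 0.37 (SE) became -0.26 without ret/ret replicate 1. The highest control for both genes was ret/wt replicate 4, the library with choroid plexus genes, and the part of that tissue was not tested.

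Spp1 in cortex was at 8.71, 12.4, 11.3 and 8.25 CPM in ret/wt and at 8.42, 10.2, 3.65 and 7.88 CPM in ret/ret. It leaned the other way from thalamus, at -0.41 ± 0.32 (SE), with ret/ret replicate 3 lowest. Igf1 was at 14.98, 3.87, 14.6 and 10.1 CPM in ret/wt and at 16.5, 7.23, 11.6 and 6.51 CPM in ret/ret, a log2 fold change of -0.04 ± 0.44 (SE). Lgals3 was at 0.235, 0.657, 0.615 and 0.868 CPM in ret/wt and at 0.871, 0.871, 0.912 and 0.130 CPM in ret/ret, a log2 fold change of 0.24 ± 0.60 (SE). The genotypes overlapped for all 3, and each had an adjusted p of 0.999 (edgeR, Benjamini-Hochberg).

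The 4 members too low for the cortex fit were compared on mean log2 CPM by exact permutation of the 8 libraries (two-sided, 70 regroupings, smallest possible p 0.0286). Cst7 was at 0.0785, 0.146, 0.264 and 0.217 CPM in ret/wt cortex and at 0.508, 0.0436, 0.109 and 0.130 CPM in ret/ret cortex, 13 counts in each genotype, with an exact permutation p of 0.886. Itgax was at 0.235, 0.0730, 0.0439 and 0.109 CPM in ret/wt cortex and at 1.09, 0.479, 3.90 and 0 CPM in ret/ret cortex, with an exact p of 0.2. Ret/ret replicate 3 held 107 counts of Itgax with 3 counts of Cst7, and replicate 4 held 0 counts of Itgax. Clec7a was at 0.0785, 0.803, 0.220 and 0.0543 CPM in ret/wt cortex and at 0.943, 0.784, 0.438 and 0.325 CPM in ret/ret cortex, with an exact p of 0.143. Ch25h was at 0, 0.0730, 1.49 and 0.326 CPM in ret/wt cortex and at 0.363, 3.92, 0.365 and 0.195 CPM in ret/ret cortex, with an exact p of 0.343. Over these 4 tests the Benjamini-Hochberg adjusted p of the exact tests was 0.4 or more. Since low control counts of these 4 were known when the members were chosen, nothing is read from these exact tests.

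**Figure D4:**
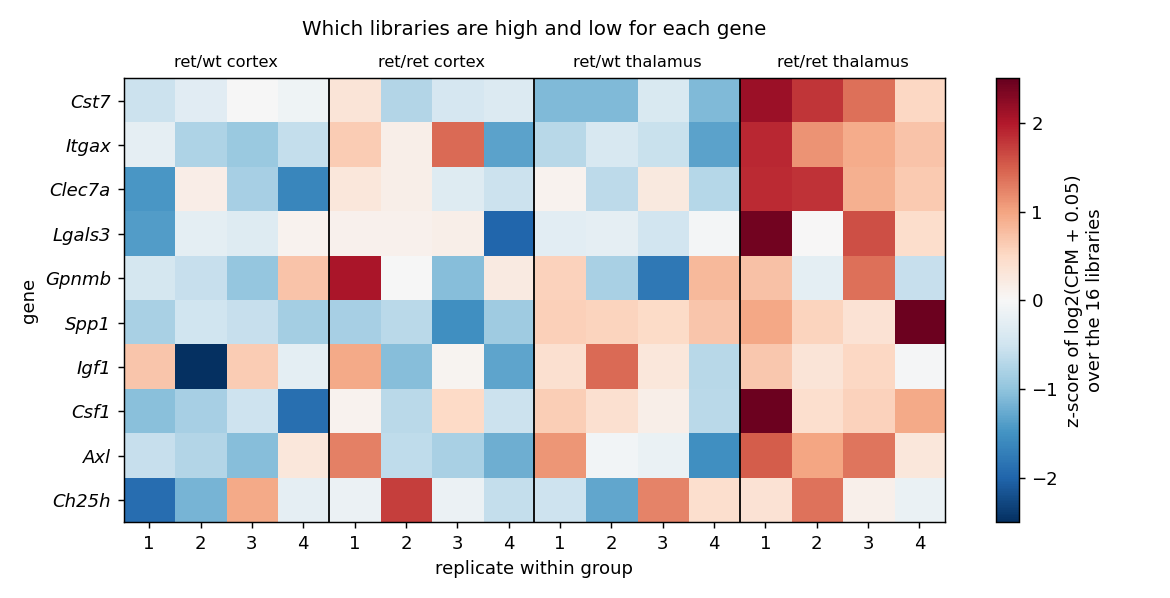
Z-score over the 16 libraries of log2(CPM + 0.05) for each gene (rows) in each library (columns, by group and replicate); red is high and blue is low for that gene. Cst7, Itgax and Clec7a are red across the 4 ret/ret thalamus columns, while Gpnmb, Axl and Igf1 are high in ret/ret cortex replicate 1 too.

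Thalamus was compared with cortex within the control animals to give the regional background without calcification. The control thalamus libraries were also the baseline of the comparison known at the choice of members, which limits the tests below. Spp1 was higher in thalamus in 4 of 4 animals, with a mean of 44.8 ± 4.73 CPM there and 10.2 ± 2.01 CPM in cortex (SD, n = 4). The difference was 2.15 ± 0.21 (SE) on the log2 scale, and its Benjamini-Hochberg adjusted p from edgeR was 0.000264, or 0.00352 with the animal as a block. It was 1 of the 6 members that passed the filter to be called, where 1813 of 14442 genes (12.6%) were called and 785 (5.44%) were called higher. Oligodendrocyte genes summed to 9437 to 11462 CPM in control thalamus and 1769 to 4416 CPM in control cortex. Their part in the Spp1 difference was not tested. Csf1 was also higher in thalamus in 4 of 4 animals, at 28.0 ± 4.71 CPM against 19.1 ± 3.35 CPM (SD, n = 4). That difference, 0.56 ± 0.21 (SE) on the log2 scale, did not pass (edgeR adjusted p 0.114).

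No other member passed a test of region in controls. The log2 fold changes were 0.25 ± 0.63 for Gpnmb, 0.32 ± 0.33 for Axl, 0.33 ± 0.41 for Igf1 and 0.14 ± 0.48 for Lgals3 (SE), with adjusted p-values from edgeR of 0.575 to 0.888. Cst7 had 2 counts in the control thalamus and 13 in the control cortex, and was lower in thalamus in 4 of 4 ret/wt animals. Itgax had 7 counts in each region, Clec7a 41 in thalamus and 18 in cortex, and Ch25h 54 and 41. These 4 were not tested between regions, because their low control counts were known when the members were chosen.

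The same regions were set side by side in the ret/ret animals, in the same 4 animals and with the calcified tissue on the thalamus side. Cst7, Clec7a and Spp1 had all 4 thalamus libraries above all 4 cortex libraries, which 1206 of 14715 genes (8.2%) did, and from which nothing is read because the thalamus libraries chose the members. Their log2 fold changes were 4.87 ± 0.98, 2.64 ± 0.61 and 4.20 ± 0.84 (SE), with Spp1 at 2.72 without thalamus replicate 4, where the controls had 2.15. Lgals3 was at 1.90 ± 0.74 (SE), or 1.22 without thalamus replicate 1. Itgax was at 1.31 ± 1.05 (SE), and ran from 0.38 without thalamus replicate 1 to 2.75 without cortex replicate 3, the library with 107 counts. Axl was at 0.80 ± 0.36, Csf1 at 0.62 ± 0.24, Igf1 at 0.33 ± 0.31, Gpnmb at -0.25 ± 0.72 and Ch25h at -0.27 ± 0.99 (SE). Without single libraries Axl reached 1.33 (cortex replicate 1) and Csf1 0.36 (thalamus replicate 1), Igf1 ran from 0.16 (cortex replicate 4) to 0.66 (cortex replicate 1), Gpnmb from -0.71 (thalamus replicate 3) to 0.81 (cortex replicate 1) and Ch25h from -1.15 (thalamus replicate 2) to 1.71 (cortex replicate 2).

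Within single animals, 5 members were higher in thalamus than in cortex in 4 of 4 ret/ret animals (Cst7, Clec7a, Spp1, Axl and Csf1), and 2 in 4 of 4 ret/wt animals (Spp1 and Csf1). The share of all genes that did so was not computed, and the thalamus libraries chose the members, so nothing is read from these counts. For Cst7 the mean log2 difference of thalamus and cortex was 4.19 ± 1.64 in ret/ret animals and -1.62 ± 0.65 in ret/wt animals (SD, n = 4), where the control values rest on 0 to 6 counts. Itgax was higher in thalamus in 3 of 4 ret/ret animals, and the exception was replicate 3. The difference between genotype effects in thalamus and in cortex, fitted as an interaction on all 16 libraries, was called for 0 of 15286 genes (0%) after Benjamini-Hochberg adjustment in edgeR, against 245 (1.6%) at an unadjusted p under 0.05 and 4 (0.0262%) by DESeq2. Its size was 7.31 ± 1.48 (SE) on the log2 scale for Cst7, 1.77 ± 0.91 for Lgals3, 1.70 ± 1.06 for Clec7a and 1.50 ± 1.63 for Itgax. Without single libraries Lgals3 was as low as 1.09 and Itgax as low as 0.57 (both ret/ret thalamus replicate 1), Itgax as high as 2.92 (ret/ret cortex replicate 3) and Clec7a as low as 0.56 (ret/wt cortex replicate 2). Spp1 stood at 2.06 ± 0.84 (SE), or 0.58 without ret/ret thalamus replicate 4. Axl was at 0.48 ± 0.53, Csf1 at 0.06 ± 0.32, Igf1 at 0.01 ± 0.54, Gpnmb at -0.49 ± 1.02 and Ch25h at -0.93 ± 1.67 (SE). Of these, all but Axl changed sign when single libraries were left out.

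Corrected for exon length, as CPM per kilobase, the order of the members in control thalamus was Spp1 (27.2 ± 2.87), Axl (12.5 ± 5.93), Csf1 (5.30 ± 0.89), Igf1 (1.37 ± 0.49), Ch25h (0.576 ± 0.687), Gpnmb (0.526 ± 0.385), Lgals3 (0.353 ± 0.052), Clec7a (0.205 ± 0.122), Cst7 (0.0303 ± 0.0606) and Itgax (0.0194 ± 0.0146), each a mean with its SD (n = 4). From Igf1 downward most neighbours were within their SDs of each other. In ret/ret thalamus Cst7 ranked 4 in place of 9, at 5.48 ± 4.70 CPM per kilobase, behind Spp1 (83.7 ± 108), Axl (20.4 ± 4.72) and Csf1 (7.41 ± 2.45). The 6 below it, from Clec7a at 1.47 to Itgax at 0.718 CPM per kilobase, lay within their SDs of each other. In cortex Axl was first in both genotypes, at 10.03 ± 2.86 in ret/wt and 11.7 ± 6.99 CPM per kilobase in ret/ret (SD, n = 4), and the last place went to Itgax in ret/wt and to Cst7 in ret/ret.

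Across all groups the high values of Ch25h came from the same animals. It was at 1.49 to 3.92 CPM (34 to 90 counts) in the 4 libraries of the animals with Y-linked reads and at 0 to 0.775 CPM (at most 16 counts) in the other 12. Those animals were 1 of each genotype, and their libraries had cerebellum markers in cortex as well, so these features cannot be told apart. No other member had its 4 values in these animals all above the other 12 libraries.

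The wider group of disease-associated microglia genes was taken from a list of 34 others, of which 32 were tested in thalamus. The list was chosen with earlier results of these data known, so nothing is read from its counts or median. Of the 32 genes, 28 had a log2 fold change above 0, where 47.1% of all genes did. Of the 28, 12 had an unadjusted p under 0.05 in edgeR, against 3.93% of all genes. For 3 of the 32 all ret/ret libraries were on top, as for 1.7% of all genes. After Benjamini-Hochberg adjustment over all genes, 0 of the list passed in edgeR and 1 in DESeq2, against 0.257% of all genes. The median log2 fold change of the list was 0.37, against -0.02 for all genes and 1.20 for the 10 members. Among the 32 tested, the largest was Lilrb4a, an inhibitory receptor, at 2.02 ± 0.82 (SE). The smallest was Timp2, a metalloproteinase inhibitor, at -0.25 ± 0.25 (SE). The filter on low counts removed Ccl3 and Ccl4, so neither enters these counts or this ranking. Ccl3 averaged 0.936 CPM where the thalamus was calcified and 0.0784 CPM where it was not, with all calcified libraries on top. Ccl4 averaged 0.172 and 0.0323 CPM, with overlap. Trem2 stood at 1.07 ± 0.33 and Tyrobp at 1.10 ± 0.39 (SE), and the lipase Lpl at 1.67 ± 0.28 (SE), with adjusted p-values of 0.335 or more (edgeR, Benjamini-Hochberg). Lpl was the other way in cortex, at -1.20 ± 0.44 (SE). In cortex 31 of the list were tested, and 23 had a log2 fold change above 0, where 51.9% of all genes did. In edgeR 3 had an unadjusted p under 0.05, against 3.77% of all genes, and 0 passed adjustment in edgeR or DESeq2.

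Another list, also chosen with earlier results of these data known, held 27 ligands, receptors and partners that act with the members. In thalamus 22 of 27 had a log2 fold change above 0, where 47.1% of all genes did. In edgeR 6 of the 22 had an unadjusted p under 0.05, against 3.93% of all genes. After Benjamini-Hochberg adjustment 0 passed in edgeR or in DESeq2. The median log2 fold change of the list was 0.30. The largest was Itgb2, the beta chain that pairs with Itgax, at 12.4 ± 6.97 CPM in ret/ret and 4.66 ± 2.56 CPM in ret/wt (SD, n = 4), 1.44 ± 0.46 (SE) on the log2 scale. It was -0.39 ± 0.46 (SE) in cortex. The smallest was Itgav, an integrin chain that binds osteopontin, at -0.67 ± 0.33 (SE). Csf1r, the receptor of Csf1, was at 0.60 ± 0.19 (SE) in thalamus and 0.13 ± 0.25 (SE) in cortex. Gas6, the ligand of Axl, was at 0.13 ± 0.19 (SE) between genotypes in thalamus. Between regions of control animals, Gas6 was higher in thalamus by 0.70 ± 0.20 (SE), while Mertk and Tyro3, the other receptors of Gas6, were lower by 1.06 ± 0.20 and 1.88 ± 0.19 (SE). All 3 passed, with Benjamini-Hochberg adjusted p-values from edgeR of 0.0422, 0.00676 and 0.000269. Of the 27 genes, 5 were called in this comparison, where 1813 of 14442 genes (12.6%) were, and nothing is read from that count.

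Other genes were ranked by Pearson r over the 16 libraries between their log2 CPM and the mean z-score of the members, as a description in which the 2 regions of an animal share a source and library makeup moves many genes at once. Among 12766 genes, the closest were Abhd4 (0.91), Slc16a9 (0.91), Mboat2 (0.87), Cat (0.87), Nat8f5 (0.87), Ifit3b (0.86), Slc43a2 (0.86), Acsbg1 (0.86), Rsu1 (0.85) and Ptgr2 (0.84). The lowest were Phf10 (-0.86), Mbd5 (-0.85), B3galnt1 (-0.84), Atp9b (-0.84) and Ncoa6 (-0.84). Tyrobp ranked 154 with an r of 0.73 and Trem2 ranked 316 with an r of 0.67. Csf1r ranked 2495 with an r of 0.37, and Lpl ranked 8511 with an r of -0.27. Acsbg1, an acyl-CoA synthetase, was at 158 ± 19.6 CPM in ret/wt cortex, 280 ± 71.8 CPM in ret/ret cortex, 273 ± 23.5 CPM in ret/wt thalamus and 462 ± 130 CPM in ret/ret thalamus (SD, n = 4).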

How the data were processed

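PolyA-selected RNA from 16 libraries was deposited by the authors as 1 table of expected counts, estimated reads per Ensembl gene and library. The submitters' processing notes name kallisto 0.44.0 and GRCm38.p6, and how transcripts were summed to genes is not given in the sources used here. Expected counts were rounded. Symbols and coordinates came from GENCODE M21 (21612 genes matched, 99.1%). Genes were filtered with filterByExpr (minimum count 10, total 15), scaled by TMM and tested with edgeR 4.0.16 in R 4.3.3 (quasi-likelihood, Benjamini-Hochberg at 0.05), using the 8 libraries of a pair of groups, and all 16 for the interaction. The code was tested on simulated data. Mean log2 CPM used a prior count of 1. DESeq2 1.42.0, other scaling, no filter, leaving out libraries and the animal as a block were alternatives. The labels give the same animal letter to both regions, and the residual correlation of the pairs was -0.0171 to 0.239. Groups came from the labels. The members, the lists and the rule for naming genes (all members, list extremes with a few fixed partners, and the 10 and 5 genes at the ends of the ranking by likeness) were chosen with earlier results of these data known.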

Additional observations from a re-analysis of the deposited data

Results flagged for a closer look

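In 7 of 40 groups of 4 libraries, the highest or lowest library lay farther from the rest than Dixon's 95% limit allows. Chance gives about 2 for normal values in independent groups. The groups here share libraries and some are near 0 counts, so nothing is read from the number flagged. In ret/wt thalamus this was Cst7 in replicate 3, at 0.120 CPM against 0 in the others, which is 2 counts. In ret/ret thalamus it was Itgax in replicate 1 at 8.37 CPM, Spp1 in replicate 4 at 403 CPM and Ch25h in replicate 2 at 2.46 CPM. In ret/ret cortex it was Axl in replicate 1 at 111 CPM, Lgals3 in replicate 4 at 0.130 CPM and Ch25h in replicate 2 at 3.92 CPM. Both Ch25h libraries came from the same animal. Cst7 also leaned opposite ways between the genotypes in its difference of thalamus and cortex. Its mean log2 difference of thalamus and cortex was 4.19 in ret/ret animals, higher in 4 of 4, and -1.62 in ret/wt animals, lower in 4 of 4. The ret/wt value rests on 0 to 6 counts per library, so its size depends on the prior count. The difference between the genotypes was not tested, because the thalamus values of both were known when the members were chosen.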

How the results depend on the processing

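The number of genes called depended on the test: DESeq2 gave 38 in place of 0 for genotype in thalamus, 39 in place of 3 in cortex, 2591 in place of 1398 for region in ret/ret and 4 in place of 0 for the interaction. Without the animals with Y-linked reads there was 1 gene for genotype in cortex and 2564 for region in ret/ret. Leaving out each library gave 0 to 2 genes for genotype in cortex, 1178 to 1797 in place of 1813 for region in ret/wt, the lowest without ret/wt cortex replicate 1, and 627 to 2007 for region in ret/ret, the lowest without ret/ret cortex replicate 3. With the replicate block for the animal the numbers were 1487 for region in ret/wt, 1177 for region in ret/ret and 0 for the interaction, and the block changed the call of no member. Directions of members that had passed no test turned when 1 library was left out. For genotype in cortex the log2 fold change ran from -0.0193 to 1.58 for Gpnmb, -0.26 to 0.46 for Axl, -0.0030 to 0.56 for Lgals3 and -0.35 to 0.15 for Igf1, and Igf1 was at 0.27 without the animals with Y-linked reads. For region in ret/wt it ran from -0.18 to 0.79 for Gpnmb, -0.0119 to 0.55 for Axl and -0.11 to 0.38 for Lgals3. The cause was not tested. Spp1 between regions of ret/wt stayed past the threshold in every setting run, at 2.07 to 2.26. Depth limits Cst7, Itgax, Clec7a and Ch25h in controls, where 3 counts are 0.103 to 0.224 CPM of the unscaled library totals over all 16 libraries.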
